A study of Mus musculus with 36 samples.

Results

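The genes described here are 10 genes of detoxification and export, taken by their symbols from the 19879 genes of the deposited tables: Nqo1, Cbr1, Gstm1, Gstp1, Gsta4, Mgst1, Ephx1, Esd, Abcc1 and Osgin1. All 10 were listed in the tables, and 9 of them had enough reads for a test in at least 1 comparison. The exception was Gsta4, which never passed the filter on low counts. RNA was measured by poly(A) RNA sequencing in BV-2, a line of mouse microglia that was immortalised and carries the label wild-type. The 36 libraries formed 12 groups of 3, from 6 treatments at 2 exposure times, 4 h and 24 h. Cells received DMSO alone, EtOH alone, LPS alone at 600 ng/ml, or LPS together with DMF (dimethyl fumarate) at 30 µM, MMF (monomethyl fumarate) at 30 µM or CBD (cannabidiol) at 6 µM. LPS, lipopolysaccharide, is a bacterial wall component that activates microglia. DMSO was the solvent of both fumarates and EtOH that of CBD, and every treated culture held vehicle at 0.2%. The LPS experiments were run in medium with lowered serum, and no group received a drug without LPS. The labels do not name the vehicle of the LPS-only cells, so in comparisons of a drug with LPS alone a difference of vehicle cannot be told apart from the drug. Each group is 3 independent experiments on 1 cell line.

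Cells dispose of reactive and foreign molecules in steps. Reductases and hydrolases first convert quinones, carbonyls, epoxides and esters into less reactive or more soluble forms. Glutathione transferases then attach glutathione to electrophilic compounds, and pumps of the ABC family carry the conjugates out of the cell. Many of these genes are targets of Nrf2, a transcription factor that is held by Keap1 and broken down in resting cells. Electrophiles such as fumaric acid esters modify cysteines of Keap1, and Nrf2 then accumulates and binds antioxidant response elements, short DNA motifs near its target genes. Nqo1 is the classic target used to read this pathway.

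The core of such an element, TGACNNNGC or TGAGNNNGC on either strand, was searched in the 1000 bases before the canonical start of each gene in GRCm39. A match is printed here for each of the 6 genes that had one, as a description of sequence only. Capitals mark the matched core, and 10 bases stand on each side.
Nqo1, chr8:108130255-108130283, minus strand: agagtcacagTGAGTCGGCaaaatttgag
Osgin1, chr8:120163777-120163805, minus strand: ttcataagcgTGAGTCAGCaggggcccct
Gsta4, chr9:78099133-78099161, plus strand: tactcagtaaTGAGTCAGCgaaaactttt
Mgst1, chr6:138118218-138118246, plus strand: accaaagaccTGAGGGCGCagcccttggg
Ephx1, chr1:180845732-180845760, plus strand: acagacaagaTGACCAGGCacaccactgt
Cbr1, chr16:93404433-93404461, plus strand: gtcagtcattTGACCTGGCcggttttttt
The Nqo1 match lay between genes, 331 bases before the start. Those of Osgin1, Mgst1 and Ephx1 lay in introns of other transcripts of the same gene, 62, 348 and 608 bases before the canonical start. Those of Gsta4 and Cbr1 lay in exons of other transcripts of the same gene, at 78 and 254 bases. Of 18010 windows of protein-coding genes, 57.9% held at least 1 match, 29.1% of TGACNNNGC and 41.1% of TGAGNNNGC, so 6 of 10 was close to the share in all genes. The stricter core TGANTCNGC, which overlaps both and was chosen after the matches were seen, was present in 8.78% of windows and in those of Nqo1, Osgin1 and Gsta4. The windows of Gstm1, Gstp1, Abcc1 and Esd held no match to either core. These are letters in a window, and no binding was measured.

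The libraries held 14.1 to 26.7 M reads on genes, with a median of 16.2 M. All 11 microglia and macrophage markers passed the filter on low counts. Rbfox3, Mog, Cldn5, Col1a2 and Cd3e, which define neurons, oligodendrocytes, endothelium, fibroblasts and T cells, were at or near 0. Levels are given below as normalized counts, reads divided by a size factor common to the 36 libraries, with ± for the SD of 3 libraries. Fold changes come from limma fits on log2(normalized count + 1) over the 6 libraries of a comparison, with the authors' own scaling of that comparison, and "rose" and "fell" are kept for an adjusted p below 0.05. In bulk RNA, a change of RNA per cell cannot be told apart from a change in the number of cells that hold it.

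Levels per kilobase of exon spread the 10 genes from the top to the bottom of the 14642 genes ranked. The length was that of all annotated exons of a gene merged. For Cbr1 this was 3811 bases against 1257 in its canonical transcript, and for Nqo1 2748 against 2671. The order of genes of near level, such as Nqo1 and Cbr1, and the ranks among relatives below therefore depend on the length used. Esd, esterase D, which frees glutathione from S-formylglutathione, was highest with a median of 863 normalized counts per kb over the 36 libraries, the 95.9th percentile. Gstp1, a cytosolic glutathione transferase, followed with 598 per kb, and Abcc1, the multidrug resistance pump that exports glutathione conjugates, with 400.0 per kb. Gstm1, another cytosolic transferase, stood at 219 per kb. In the middle were Ephx1, the microsomal epoxide hydrolase, with 62.9 per kb, and Osgin1, an oxidative stress inducible growth inhibitor, with 38.8 per kb. The low end held Mgst1, the membrane-bound microsomal transferase, with 11.1 per kb, Nqo1, the quinone reductase, with 4.48 per kb, and Cbr1, a carbonyl reductase, with 3.77 per kb, at percentiles 29.8, 23.0 and 21.9. Gsta4, the transferase best known for conjugating 4-hydroxynonenal, had 0.368 per kb, the 6.13th percentile.

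Relatives outside the 10 genes outranked several of them per kb. Abcc1 was the first of 8 measured Abcc genes, ahead of Abcc4 at 169 normalized counts per kb, and Ephx1 the first of 4 epoxide hydrolase genes. Gstp1 and Gstm1 were next of 21 glutathione transferase genes after Gsto1 at 783 per kb. Nqo1 stood under Nqo2 at 70.4 per kb, Cbr1 under Cbr4 at 32.5 and Cbr2 at 21.9 per kb, and Mgst1 under Mgst2 at 49.0 and Mgst3 at 41.6 per kb.

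On GRCm39 the genes lie apart on 8 chromosomes. Nqo1 (ENSMUSG00000003849) spans chr8:108114857-108129838 and Osgin1 (ENSMUSG00000074063) chr8:120160863-120172995. Abcc1 (ENSMUSG00000023088) spans chr16:14179422-14293601 and Cbr1 (ENSMUSG00000051483) chr16:93402741-93407393. Gstm1 (ENSMUSG00000058135) lies at chr3:107919571-107925289, Gstp1 (ENSMUSG00000060803) at chr19:4085407-4087985, Gsta4 (ENSMUSG00000032348) at chr9:78090056-78116631 and Mgst1 (ENSMUSG00000008540) at chr6:138117314-138133753. Ephx1 (ENSMUSG00000038776) lies at chr1:180803775-180848469 and Esd (ENSMUSG00000021996) at chr14:74969737-74988205. Of 755 windows of 150 bases along the Gstp1 transcript, 281 (37.2%) also occur in another gene, most of them in Gstp2, which is 94.6% identical over 809 bases. The split of reads between Gstp1 and Gstp2 is therefore uncertain, although Gstp2 was listed at only 7.34 normalized counts per kb. The shared share was 0.414% for Esd, 0.0444% for Abcc1 and 0% for the others. Exons on the opposite strand overlap 45 bases of Gstm1, 72 of Ephx1 and 511 of Abcc1, and whether counting used the strand is not stated. A pseudogene on the same strand, Gm36961, also shares 72 exon bases with Ephx1.

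Osgin1 spanned 6.47-fold from the lowest to the highest group mean and Nqo1 5.79-fold, both highest in LPS with DMF at 4 h. Mgst1 spanned 3.38-fold, Gstm1 3.21-fold and Esd 3.05-fold, each highest in LPS with CBD at 24 h. Ephx1 spanned 2.87-fold and was highest in DMSO at 24 h and lowest in LPS with DMF at 24 h. Abcc1 spanned 2.65-fold, Cbr1 2.40-fold and Gstp1 2.03-fold. With the groups of each gene in order of their means, the libraries of neighbours overlapped except in 5 places. Gstm1 in LPS with CBD at 24 h stood clear of the next group. Osgin1 in LPS with DMF at 4 h stood clear of the same treatment at 24 h, and Osgin1 in LPS with MMF at 24 h stood clear of DMSO at 4 h. Ephx1 in LPS with DMF at 24 h stood clear below LPS at 24 h, and Esd in LPS with DMF at 24 h stood clear of LPS with MMF at 4 h.

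**Figure D1:**
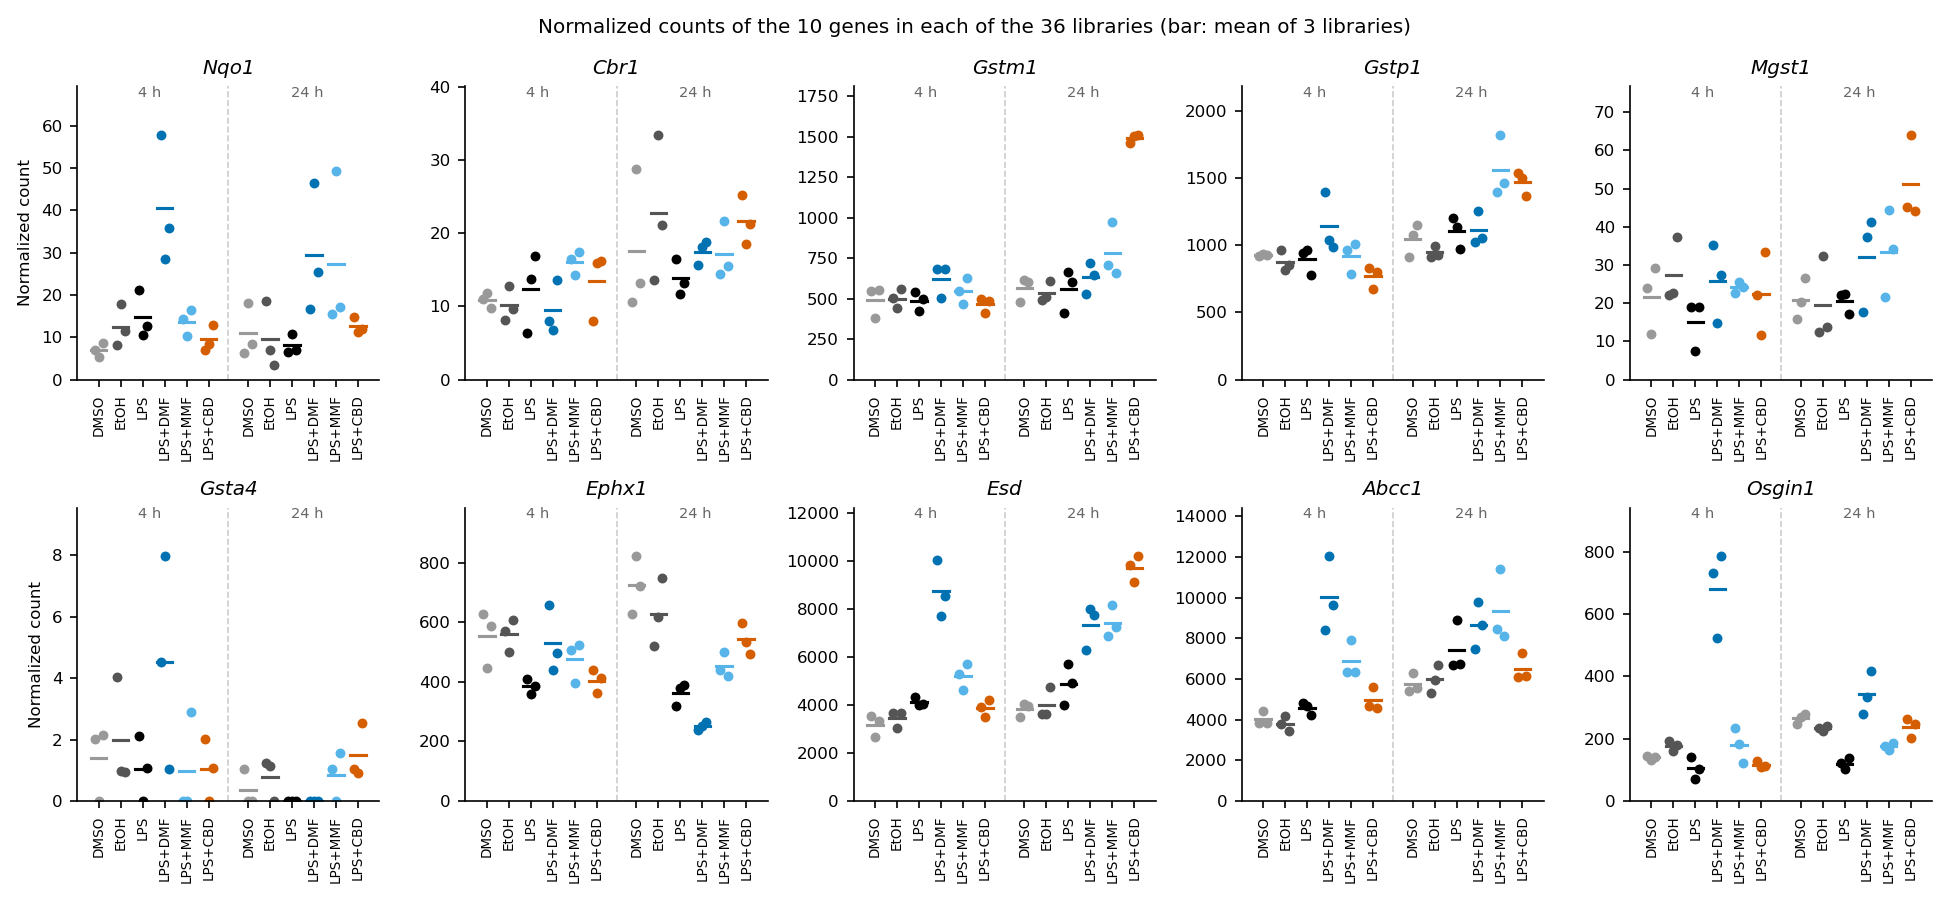
Normalized counts of the 10 genes (vertical axes, linear from 0) in the 12 groups (horizontal axes), with 1 point per library and a bar at the mean of 3 libraries. Osgin1 and Nqo1 peak in LPS with DMF at 4 h, with means of 681 and 40.7, and Gstm1 in LPS with CBD at 24 h, with a mean of 1492.

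Nqo1, Cbr1 and Gsta4 were close to the limit of detection. Nqo1 had 5 to 51 reads per library and 590 in all, so its fold changes carry wide intervals. It passed the filter of 10 normalized counts in at least 3 libraries in 26 of 33 comparisons, and the other 7 comparisons each held a vehicle group. Where 1 of the groups lay near or under 10, as LPS alone did at 24 h, Nqo1 passed mainly through the group where it was high. Cbr1 had 6.33 to 33.5 normalized counts per library and was tested in all 33, with 1 call. Gsta4 had 0 to 7 reads per library, 43 in all, and 0 reads in 15 libraries. Its 3 libraries of LPS with DMF at 4 h held 4, 7 and 1 reads, and all 6 libraries of LPS alone and LPS with DMF at 24 h held none. No difference in Gsta4 was detectable at this depth. A count of 0 in a library allows up to 3 reads.

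Against both vehicles, LPS cells had lower Ephx1 at 4 h and at 24 h and lower Osgin1 at 24 h. Replicate numbers are 1 to 3 in the LPS groups and 4 to 6 in the vehicle groups. If they mark separate experiments, a difference between those experiments cannot be told apart from LPS. At 4 h, Ephx1 had 410, 360 and 386 normalized counts in LPS cells, 626, 446 and 588 in DMSO cells and 571, 500.1 and 607 in EtOH cells. Every LPS library lay under every vehicle library. Ephx1 fell by 0.51 on the log2 scale against DMSO (95% interval -0.81 to -0.22, adjusted p = 0.0308) and by 0.53 against EtOH (adjusted p = 0.0117). Leaving out DMSO replicate 4 or 6, or LPS replicate 2 or 3, lost the first call (adjusted p 0.056 to 0.133), and leaving out EtOH replicate 4 or 6 or LPS replicate 3 lost the second (0.0538 to 0.0611). Esd rose by 0.38 against DMSO (adjusted p = 0.0382), which was lost without LPS replicate 1 or 3 or DMSO replicate 5 or 6 (0.0664 to 0.105), and had a log2 difference of 0.26 against EtOH (adjusted p = 0.0903). In all, 2 of 8 genes tested were called against DMSO, where 14.1% of all genes were, and 1 of 9 against EtOH, where 10.2% were.

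At 24 h both Osgin1 and Ephx1 were lower in LPS cells. Osgin1 had 122, 102 and 137 normalized counts in LPS cells, 249, 270.4 and 281 in DMSO cells and 235, 226 and 241 in EtOH cells. Ephx1 had 318, 379 and 389 in LPS cells, 628, 821 and 723 in DMSO cells and 521, 617 and 747 in EtOH cells. In both genes the LPS libraries lay wholly under those of either vehicle. Osgin1 fell by 1.14 against DMSO (adjusted p = 0.000179) and by 0.96 against EtOH (adjusted p = 0.000547). Ephx1 fell by 0.98 (adjusted p = 0.000193) and by 0.78 (adjusted p = 0.0019). Abcc1 rose by 0.38 against DMSO (adjusted p = 0.0346), a call lost without DMSO replicate 4 or 6 or LPS replicate 2 (0.0564 to 0.123), and its log2 difference was 0.32 against EtOH (adjusted p = 0.0886). The count was 3 of 8 against DMSO, with 22.7% of all genes called, and 2 of 8 against EtOH, with 20.5%. The comparisons with DMSO and with EtOH share the LPS libraries. Gstm1, Gstp1, Mgst1 and Cbr1 were called in none of the 4 comparisons of LPS with a vehicle. Between the vehicles themselves, 0 of 8 genes were called at 4 h and 0 of 8 at 24 h, where limma called 0 and 1 of all genes (0 and 0.00854%). At an unadjusted p below 0.05, 1 of the 8 passed at 4 h and 0 at 24 h.

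**Figure D2:**
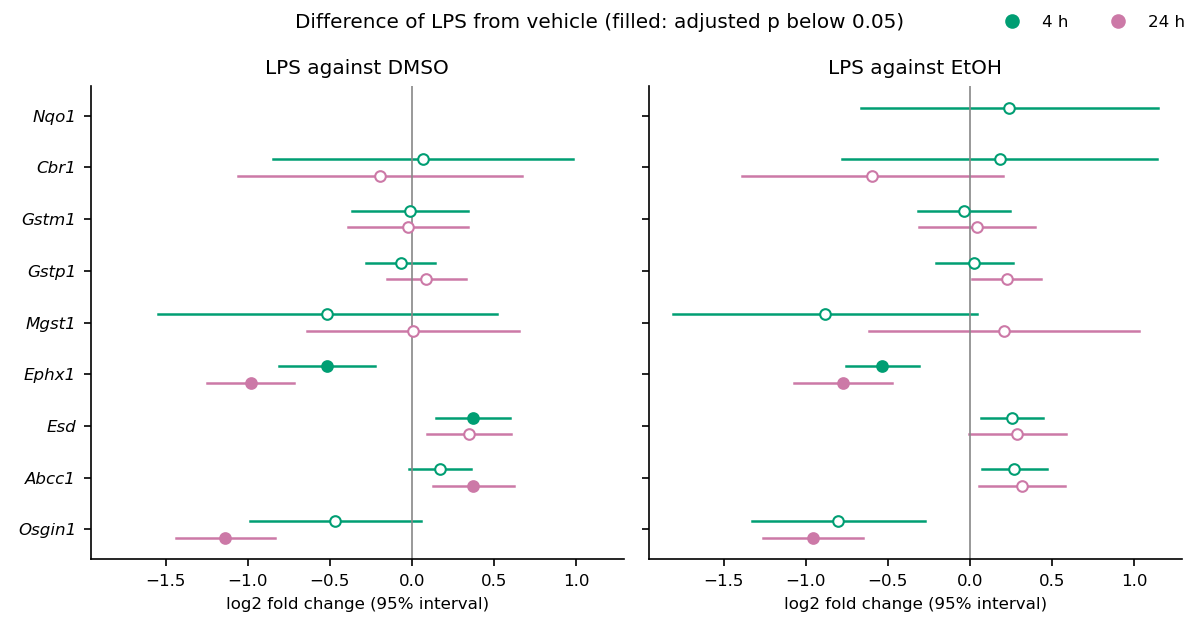
Log2 fold change of LPS alone against DMSO and against EtOH for each gene tested (horizontal axis), at 4 h in green and 24 h in pink, with 95% intervals as lines and filled points for an adjusted p below 0.05. Ephx1 lies left of 0 in all 4 comparisons, from -0.98 to -0.51, and Osgin1 is lowest at 24 h against DMSO, at -1.14.

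DMF at 4 h raised 4 genes of different roles in LPS cells, and no glutathione transferase was called without the replicate block. Osgin1 had 733, 524 and 785 normalized counts with DMF and 141, 70.7 and 104 with LPS alone. The groups were far apart, and Osgin1 rose 6.55-fold (log2 2.71, SE 0.24, 95% interval 2.16 to 3.26, adjusted p = 0.000267). Abcc1 had 8414, 12019 and 9650 with DMF against 4798, 4665 and 4211, and rose 2.17-fold (adjusted p = 0.000999). Esd had 10050, 7713 and 8556 against 4316, 3997 and 4041, and rose 2.11-fold (adjusted p = 0.000351). In Abcc1 and Esd too, the lowest DMF library lay well above the highest LPS library.

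Nqo1 moved with them from a much lower level. It had 57.8, 28.4 and 35.7 normalized counts with DMF at 4 h and 21.1, 10.6 and 12.7 with LPS alone. The groups did not overlap, but the DMF libraries were themselves spread, with replicate 1 well above the others. Nqo1 rose 2.61-fold (log2 1.39, 95% interval 0.58 to 2.19, adjusted p = 0.0375), and the call was lost without DMF replicate 1 or 3 or LPS replicate 2 or 3 (adjusted p 0.0883 to 0.127). In all, 4 of 9 genes tested rose and none fell, where 4.55% of all genes rose and 6.51% fell, and 6 of 9 did not overlap between the groups, as did not 30.1% of all genes. The median log2 difference of the 9 genes was 0.75, against 0.01 over all genes tested. The genes not called had log2 differences of 0.75 for Mgst1, 0.44 for Ephx1, 0.34 for Gstm1, 0.34 for Gstp1 and -0.31 for Cbr1. With the replicate number as a block, Ephx1 (adjusted p = 0.0309) and Gstm1 (adjusted p = 0.0425) were called too, making 6 of 9, with 5.98% of all genes called higher.

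At 24 h DMF raised 3 of these genes and lowered Ephx1. Osgin1 had 280.0, 334 and 416 normalized counts with DMF and 122, 102 and 137 with LPS alone, and rose 2.82-fold (log2 1.5, 95% interval 1.13 to 1.86, adjusted p = 0.00036). Nqo1 had 16.7, 46.4 and 25.5 against 6.62, 10.7 and 7.0, and rose 3.15-fold (log2 1.66, 95% interval 0.79 to 2.52, adjusted p = 0.0129). Esd had 6313, 7990 and 7747 against 4003, 5704 and 4923, and rose 1.51-fold (adjusted p = 0.00715). None of the 3 genes overlapped between the groups, though without DMF replicate 2 the Nqo1 call was lost (log2 1.28, adjusted p = 0.0565). Nqo1 passed the low-count filter there mainly through its DMF libraries.

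Ephx1 went the other way. It had 238, 252 and 265 normalized counts with DMF at 24 h against 318, 379 and 389 with LPS alone, itself below the vehicle cells. The DMF libraries were the 3 lowest of all 36, and Ephx1 fell by 0.52 on the log2 scale (95% interval -0.76 to -0.28, adjusted p = 0.00739). The count was 4 of 9, 3 higher and 1 lower, where 25.1% of all genes were called, and the same 4 were without overlap, where 42.4% of all genes were. Abcc1 had a log2 difference of 0.22 (adjusted p = 0.209), which passed with the replicate number as a block (adjusted p = 0.0149), where 39.1% of all genes were called. Gstp1 had a difference of 0.01 (95% interval -0.23 to 0.24) and Gstm1 of 0.20 (-0.18 to 0.57).

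MMF in LPS cells brought no call by limma at 4 h, and its smallest adjusted p was that of the pump Abcc1. Abcc1 had 6337, 7927 and 6342 normalized counts with MMF against 4798, 4665 and 4211, without overlap, and a log2 difference of 0.59 (95% interval 0.36 to 0.83, adjusted p = 0.11). Osgin1 had 233, 183 and 121 against 141, 70.7 and 104, with overlap, and a difference of 0.77 (0.14 to 1.41, adjusted p = 0.584). Esd had 5283, 4609 and 5712 against 4316, 3997 and 4041, without overlap, and a difference of 0.34 (adjusted p = 0.418). Nqo1 had 14.4, 10.2 and 16.5 against 21.1, 10.6 and 12.7, with overlap, and a difference of -0.07 (-0.90 to 0.77). Of 9 genes tested 0 were called, where 0.122% of all genes were, and 4 of the 9 had an unadjusted p below 0.05. Groups did not overlap in 3 of 9, against 13.5% of all genes. edgeR called 0 as well, while DESeq2 called Abcc1 (adjusted p = 0.00012), with 0.528% of all genes called.

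At 24 h with MMF, all 9 genes tested had positive log2 differences from LPS alone, and the call depended on the pairing of the replicates. Esd had 6869, 8152 and 7264 normalized counts with MMF against 4003, 5704 and 4923, and a difference of 0.62 (95% interval 0.35 to 0.89). Gstp1 had 1395, 1820 and 1463 against 1205, 1132 and 969, and a difference of 0.50 (0.24 to 0.76). Nqo1 had 15.5, 49.2 and 17.1 against 6.62, 10.7 and 7.0, and a difference of 1.47 (0.47 to 2.47). It passed the low-count filter there mainly through its MMF libraries. Groups did not overlap in these 3 genes, in 5 of 9 tested and in 9% of all genes, and in both groups replicate 2 was the highest for Nqo1 and Esd.

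Without the block, limma called none of the 9, and none of all 11584 genes (0%), with 440 genes and 6 of the 9 at an unadjusted p below 0.05. The lowest adjusted p was 0.605, for Esd. Libraries of the same number deviated together in this comparison, with correlations of 0.331 to 0.680, and with the number as a block 6 of the 9 rose, where 1.11% of all genes did. The adjusted p was 3.59e-08 for Esd, 7.71e-05 for Gstp1, 0.000208 for Abcc1, 0.00158 for Gstm1, 0.0173 for Osgin1 and 0.0204 for Nqo1. The low-count filter favoured the Nqo1 call, since Nqo1 passed it mainly through the MMF libraries. Ephx1 (adjusted p = 0.0549), Mgst1 and Cbr1 did not pass. DESeq2 called Esd alone (adjusted p = 0.0023), with 0.141% of all genes called, and edgeR none. The median log2 difference of the 9 was 0.50, against 0.00 over all genes.

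CBD in LPS cells brought no call at 4 h, and at 24 h raised 6 genes with Gstm1 first. At 4 h, 0 of 9 genes were called by limma, edgeR or DESeq2, where limma called 0.00875% of all genes, and none of the 9 had an unadjusted p below 0.05, against 363 of all genes. The widest log2 differences at 4 h were -0.56 for Nqo1 (95% interval -1.45 to 0.33) and 0.54 for Mgst1 (-0.55 to 1.62), while Esd at -0.09 (-0.27 to 0.09) and Abcc1 at 0.12 (-0.09 to 0.34) were measured more closely.

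At 24 h, Gstm1 had 1464, 1503 and 1511 normalized counts with CBD against 410, 664 and 602 with LPS alone. The 3 CBD libraries were the highest of all 36, and Gstm1 rose 2.73-fold (log2 1.45, 95% interval 1.11 to 1.79, adjusted p = 7.45e-05). Mgst1 had 45.3, 64.1 and 44.3 against 22.1, 22.5 and 17.1, and rose 2.42-fold (log2 1.27, 0.73 to 1.82, adjusted p = 0.00217). Gstp1 had 1536, 1497 and 1369 against 1205, 1132 and 969, and rose 1.34-fold (adjusted p = 0.00614). All 3 transferases tested were thus higher without overlap.

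Among the hydrolases, Esd had 9818, 9144 and 10195 with CBD at 24 h against 4003, 5704 and 4923, and rose 2.02-fold (adjusted p = 0.000141). Ephx1 had 599, 533 and 495 against 318, 379 and 389, and rose 1.5-fold (adjusted p = 0.00228), the reverse of its fall with DMF. Osgin1 had 265, 203 and 248 against 122, 102 and 137, and rose 1.98-fold (adjusted p = 0.000781). The groups did not overlap in any of these genes. Nqo1 had 14.7, 11.1 and 11.9 against 6.62, 10.7 and 7.0, just without overlap. Its log2 difference was 0.60 (95% interval -0.17 to 1.38, adjusted p = 0.176), and it passed the low-count filter mainly through its CBD libraries. Cbr1 had a difference of 0.62 (adjusted p = 0.0961) and Abcc1 of -0.18 (adjusted p = 0.24). With the replicate number as a block Abcc1 fell by 0.18 (adjusted p = 0.0449), where 56.7% of all genes were called. The count was 6 of 9 higher and none lower, also with each library left out in turn, where 23.9% of all genes rose and 24.8% fell, and 8 of 9 did not overlap, where 58.7% of all genes did not. The median of the 9 was 0.62 on the log2 scale, against 0.00 over all genes. The 3 CBD libraries at 24 h had the lowest mitochondrial share of reads of the 36, 1.25% to 1.4%, against 1.44% to 2.32% with LPS alone at 24 h and a median of 2.11% over all libraries. All 11 microglia and macrophage markers were present, with a summed level of 34986 to 45594 normalized counts in CBD libraries at 24 h and 35245 to 47304 in those of LPS alone. Within that list the mean of Cd68 was 12002 with CBD and 5612 with LPS alone, that of Csf1r 6450.0 and 11476, and that of Cx3cr1 17.8 and 288. The part of these differences in the result was not tested.

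**Figure D3:**
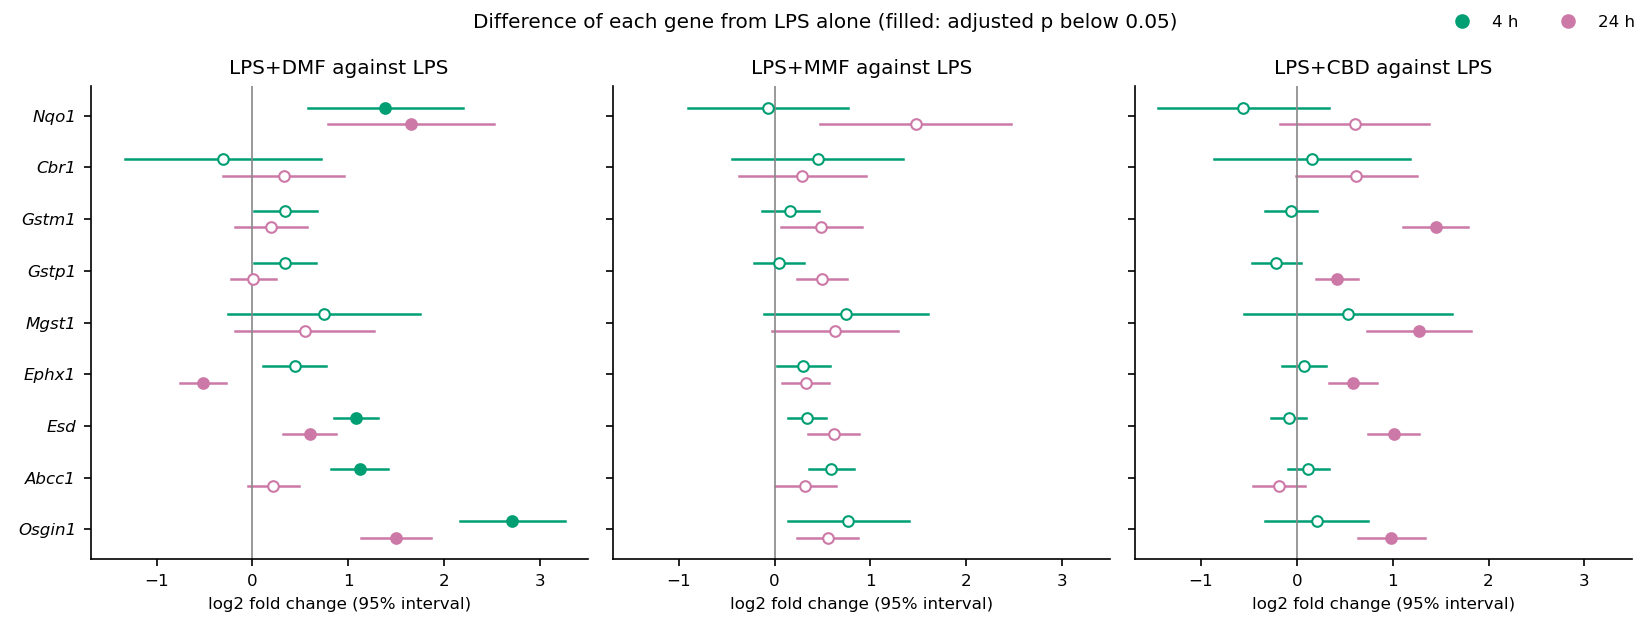
Log2 fold change of LPS with DMF, MMF or CBD against LPS alone for the 9 genes tested, at 4 h in green and 24 h in pink, with 95% intervals as lines and filled points for an adjusted p below 0.05 without the replicate block. Osgin1 lies at 2.71 with DMF at 4 h, Gstm1 at 1.45 with CBD at 24 h, and no point of MMF is filled.

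The comparisons of the 3 drugs with LPS alone share the LPS libraries, so the drugs were also compared directly. DMF and MMF, the dimethyl and the monomethyl ester of fumaric acid, were given at the same dose and for the same times, which makes 1 pair of compounds at 2 times. At 4 h, 4 of 9 genes were higher with DMF than with MMF and none lower, where 3.37% of all genes were higher and 4.97% lower. Osgin1 was higher with DMF by 1.94 on the log2 scale (95% interval 1.43 to 2.45, adjusted p = 0.00142), with DMF libraries at 524 to 785 normalized counts and MMF libraries at 121 to 233. Esd was higher by 0.74 (0.49 to 1.0, adjusted p = 0.00454). Nqo1 was higher by 1.46 (0.71 to 2.21, adjusted p = 0.026) and Abcc1 by 0.53 (0.22 to 0.85, adjusted p = 0.0452). None of the 4 overlapped between the drugs, 5 of 9 in all, against 29.6% of all genes without overlap.

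The last 2 of these calls were sensitive to single libraries. Nqo1 was lost without DMF replicate 1 or 3 or any 1 of the MMF replicates (adjusted p 0.0599 to 0.0859). Abcc1 was lost without MMF replicate 1 or 3 or DMF replicate 2 or 3 (0.0632 to 0.166). The other genes differed by amounts whose 95% intervals held 0: Gstm1 by 0.18 (-0.15 to 0.51), Gstp1 by 0.29 (-0.03 to 0.61), Mgst1 by 0.01 (-0.75 to 0.76), Ephx1 by 0.14 (-0.21 to 0.50) and Cbr1 by -0.76 (-1.60 to 0.09). For Gstm1, Gstp1 and Ephx1 the intervals leave room for differences of up to 0.61, so equal action of the 2 esters was not shown.

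At 24 h the esters differed in 3 of 9 genes, 1 higher with DMF and 2 lower, where 10.1% of all genes were higher and 11.4% lower. Osgin1 was higher with DMF by 0.94 (95% interval 0.63 to 1.26, adjusted p = 0.00233), with 280.0 to 416 normalized counts against 165 to 185. Ephx1 was lower with DMF by -0.84 on the log2 scale (-1.06 to -0.63, adjusted p = 0.000684), with 238 to 265 against 418 to 499. Gstp1 was lower with DMF by -0.49 (-0.74 to -0.24, adjusted p = 0.0142), a call lost without DMF replicate 3 (adjusted p = 0.0741). The groups did not overlap in these 3 of 9 genes, nor in 39.3% of all genes. Esd differed by -0.02 with a narrow interval (-0.24 to 0.19) and Abcc1 by -0.10 (-0.40 to 0.19), whereas Nqo1 differed by 0.19 with a wide interval (-0.86 to 1.24). Mgst1 differed by -0.09 (-0.88 to 0.71), Cbr1 by 0.04 (-0.57 to 0.64) and Gstm1 by -0.29 (-0.63 to 0.05), and with the replicate number as a block Gstm1 was called (adjusted p = 0.0116), where 39.8% of all genes were.

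**Figure D4:**
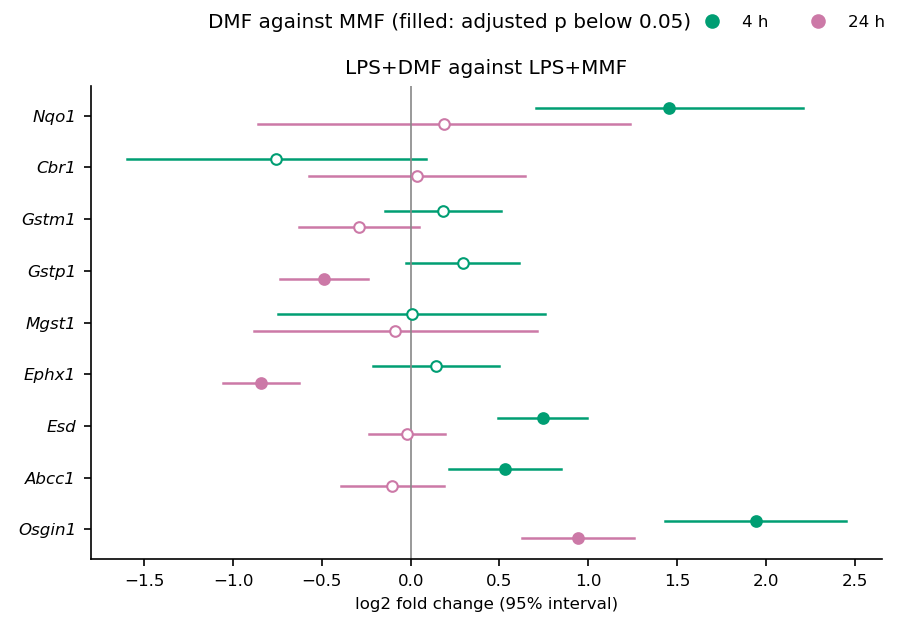
Log2 fold change of LPS with DMF against LPS with MMF for the 9 genes tested, at 4 h in green and 24 h in pink, with 95% intervals as lines and filled points for an adjusted p below 0.05. Osgin1 lies right of 0 at both times, at 1.94 and 0.94, and Ephx1 moves from 0.14 at 4 h to -0.84 at 24 h.

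CBD was given at another dose and in another vehicle than the fumarates, so its values are set beside theirs as measured. At 4 h, 5 of 9 genes were lower with CBD than with DMF, where 6.46% of all genes were: Osgin1 by -2.50, Nqo1 by -1.94, Esd by -1.16, Abcc1 by -1.0 and Gstp1 by -0.55 on the log2 scale, with adjusted p from 3.66e-05 to 0.0289. The Gstp1 call was lost without any 1 of the CBD libraries (0.055 to 0.0999). With the replicate number as a block Gstm1 (adjusted p = 0.0136) and Ephx1 (0.0294) were lower too, where 23% of all genes were called. Against MMF at 4 h none of 9 was called by limma, where 0.166% of all genes were, and 4 of the 9 had an unadjusted p below 0.05. With the block, which the correlations of 0.450 to 0.669 between same-numbered libraries allow, Abcc1, Esd, Gstp1 and Osgin1 were lower with CBD, by -0.47, -0.42, -0.26 and -0.56, where 7.78% of all genes were called.

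At 24 h the calls went both ways. Against DMF, CBD cells had higher Gstm1 (log2 1.25), Ephx1 (1.10), Esd (0.41) and Gstp1 (0.40), with adjusted p from 6.17e-05 to 0.0101, where 19.3% of all genes were higher. Nqo1 (-1.06), Osgin1 (-0.52) and Abcc1 (-0.41) were lower, where 19.2% of all genes were. Those 3 lower calls rested on single libraries: without DMF replicate 2 the adjusted p was 0.162 for Nqo1, 0.0611 for Osgin1 and 0.0638 for Abcc1. The Nqo1 call was lost as well without DMF replicate 3 or any 1 of the CBD libraries, Osgin1 without DMF replicate 3 or CBD replicate 2, and Abcc1 without DMF replicate 3 or CBD replicate 1 or 3. Mgst1, with a log2 difference of 0.72, passed with the block (adjusted p = 0.0416), where 47.5% of all genes were called.

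Against MMF at 24 h, CBD cells had higher Gstm1 (log2 0.96, adjusted p = 0.000384), Esd (0.39, adjusted p = 0.00406) and Osgin1 (0.44, adjusted p = 0.0194) and lower Abcc1 (-0.50, adjusted p = 0.011). The Osgin1 call was lost without MMF replicate 1 or 2 or CBD replicate 1 or 3 (0.0535 to 0.0753). This was 3 of 9 higher and 1 lower, where 23.5% and 24.7% of all genes were. The block added Ephx1 (adjusted p = 0.0259) and Mgst1 (adjusted p = 0.0318), where 56.7% of all genes were called.

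Set against vehicle cells in place of LPS cells, the drugs left Osgin1 and Ephx1 in different places. The limit of replicate numbers given for LPS against vehicle holds here too. With DMF at 4 h, 4 of 9 genes rose over DMSO, where 11.4% of all genes did: Nqo1 (log2 2.32), Osgin1 (2.25), Esd (1.46) and Abcc1 (1.29). Nqo1 had 5.37 to 8.66 normalized counts in the DMSO libraries. It passed the low-count filter there only through the DMF libraries, so the filter favoured its call. At 24 h DMF cells had higher Esd (0.95), Abcc1 (0.60) and Nqo1 (1.37) than DMSO cells and lower Ephx1 (-1.49, adjusted p = 3.93e-06), 4 of 9 where 40.2% of all genes were called. Osgin1 stood 0.37 over DMSO (adjusted p = 0.0556), and the Nqo1 call was lost without DMSO replicate 4 or 6 or DMF replicate 2 or 3 (0.0847 to 0.128).

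MMF cells had higher Abcc1 (0.76) and Esd (0.71) than DMSO cells at 4 h, 2 of 8 where 8.22% of all genes were called. At 24 h they had higher Esd (0.97), Abcc1 (0.70) and Gstp1 (0.59) and lower Ephx1 (-0.66) and Osgin1 (-0.58), 5 of 9 where 22.4% were. CBD cells at 24 h had higher Gstm1 (1.49), Mgst1 (1.48), Esd (1.29) and Gstp1 (0.64) than EtOH cells, 4 of 9 where 50.5% of all genes were called. Ephx1 at -0.20 (95% interval -0.50 to 0.10) and Osgin1 at 0.03 (-0.25 to 0.30) were not called there. At 4 h, CBD cells had lower Osgin1 (-0.59) and Ephx1 (-0.46) and higher Abcc1 (0.39) than EtOH cells, 3 of 9 where 13.6% were. All 3 calls were lost without EtOH replicate 4 or 6 or CBD replicate 3, and Abcc1 also without CBD replicate 2 (0.0521 to 0.127).

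Between 4 h and 24 h, 48.9% to 63.2% of all genes were called in each treatment, so each drug was compared with LPS alone at its own time.
Abcc1 rose in DMSO (log2 0.49), EtOH (0.64), LPS (0.69), MMF (0.43) and CBD cells (0.39), and its difference was -0.21 in DMF cells (adjusted p = 0.2). Osgin1 rose in DMSO (0.90), EtOH (0.38) and CBD cells (1.01) and fell by 0.99 in DMF cells, where Ephx1 fell by 1.06. In CBD cells 7 of 9 genes rose, led by Gstm1 (1.68) and Esd (1.32), where 31.6% of all genes rose. The other counts were 3 of 8 in DMSO (51.6% of all genes called), 3 of 9 in EtOH (58.6%), 1 of 9 in LPS (48.9%), 2 of 9 in DMF (58.8%) and 4 of 9 in MMF cells (49.5%). In LPS cells the block added Gstp1 (0.30, adjusted p = 0.0124), where 52.2% of all genes were called. Cbr1 had its single call of the 33 comparisons in EtOH cells (1.01, adjusted p = 0.0407), lost without EtOH 4 h replicate 4 or 6 or EtOH 24 h replicate 5 or 6 (0.0912 to 0.181). Osgin1 in EtOH cells was lost without EtOH 4 h replicate 5 or EtOH 24 h replicate 6 (0.0509 to 0.0569). Abcc1 in MMF cells was lost without MMF 4 h replicate 1 or 3 or MMF 24 h replicate 2 (0.0533 to 0.0744). Ephx1 also rose in DMSO cells, a call lost without DMSO 4 h replicate 5 or 6 or DMSO 24 h replicate 5 or 6 (0.0573 to 0.15). In MMF cells Gstm1, Gstp1 and Esd rose too, and Gstm1 was lost without MMF 4 h replicate 2 or MMF 24 h replicate 2 (0.0548 to 0.0558).

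The change of each drug's effect from 4 h to 24 h was itself tested over 12 libraries. For DMF 3 of 9 genes were called, where 16.3% of all genes were, each with a lower log2 difference from LPS at 24 h than at 4 h: Osgin1, Ephx1 and Abcc1. For CBD 4 of 9 were called, where 32% of all genes were, each higher at 24 h: Gstm1, Esd, Gstp1 and Ephx1. For MMF none of 9 and none of 11839 genes (0%) was called by limma, with 2 and 385 at an unadjusted p below 0.05.

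Other genes of the same pathway, from lists fixed for this work with earlier results known, were read in the same fits. The first list held 64 other conjugating and reducing enzymes. With DMF at 4 h, 7 of the 39 tested rose and 2 fell against LPS alone, where 4.55% of all genes rose and 6.51% fell. Among them were Ptgr1, a prostaglandin and alkenal reductase (log2 1.58, adjusted p = 0.000987), Ugt1a6a, a glucuronosyltransferase (1.12, adjusted p = 0.0481), and Gsto2, an omega-class transferase (1.09, adjusted p = 0.0413). At 24 h 8 of 43 rose and 3 fell, where 25.1% of all genes were called, so the list was near the share of all genes. Akr1b7, an aldo-keto reductase, stood at 1.93, Gstp2 at 0.90 (adjusted p = 0.0494) and Cbr2, a carbonyl reductase, at -1.37. Gstp2 had at most 28 reads in a library and 10 or more normalized counts in 36.1% of libraries. The split of its reads from those of Gstp1 is uncertain. With CBD at 24 h 17 of 43 rose and 7 fell, where 23.9% of all genes rose and 24.8% fell. Akr1b7 stood at 3.82 (adjusted p = 4.29e-05), Gsto1 at 1.32 and Cbr2 at -1.45. With MMF none of 40 at 4 h and none of 41 at 24 h was called, nor any of 39 with CBD at 4 h. With the replicate number as a block 3 of 41 rose with MMF at 24 h, where 1.78% of all genes were called. With DMF at 24 h 13 of 43 rose and 5 fell, where 39.1% of all genes were called, again near that share.

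The second list held 15 other export pumps. With DMF, Abcc4, which exports conjugates and cyclic nucleotides, rose at 4 h (log2 0.61, adjusted p = 0.00624) as the 1 call of 11. At 24 h Abcc3 (1.11) and Abcc10 (0.44) rose and Abcb10, a mitochondrial transporter, fell by 0.40. These were all the calls of 11 pumps, near the 25.1% of all genes called. With CBD at 24 h 4 of 11 pumps rose and 3 fell, where 23.9% of all genes rose and 24.8% fell. Among them were Abcb1a, a P-glycoprotein gene (1.96, adjusted p = 8.22e-05), Abcc5 (1.27) and Abcb4 (-0.68). With MMF no pump was called at either time, nor with CBD at 4 h.

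The third list held 21 Nrf2 targets of other arms, such as glutathione and thioredoxin supply, haem breakdown and iron storage. With DMF at 4 h 17 of 21 rose and none fell, with a median log2 difference of 1.18. Hmox1, haem oxygenase, rose by 3.46 (adjusted p = 4.2e-06), Srxn1, sulfiredoxin, by 3.46 (adjusted p = 1.21e-07) and Gclm, the modifier subunit of glutamate-cysteine ligase, by 2.91. With MMF at 4 h 6 of 21 rose, with Slc7a11, the cystine carrier, at 1.21, Srxn1 at 1.11 and Hmox1 at 1.10, and with a median of 0.32. With CBD at 4 h none was called and the median was -0.05. At 24 h 9 rose and 1 fell with DMF, none was called with MMF, and 10 rose and 3 fell with CBD, where Sqstm1, an autophagy receptor, rose by 2.39, Srxn1 by 1.46 and Hmox1 by 1.44. The largest with DMF at 24 h were Slc7a11 (1.54), Srxn1 (1.18) and Sqstm1 (1.15). The medians at 24 h were 0.22 with DMF, 0.34 with MMF and 0.23 with CBD. With the replicate number as a block 17 of 21 rose and none fell with MMF at 24 h, where 1.78% of all genes were called, and 14 rose and 2 fell with DMF at 24 h, where 39.1% were. Without the block, 4.55% of all genes rose and 6.51% fell with DMF at 4 h. The share called at 4 h was 0.122% with MMF and 0.00875% with CBD. At 24 h 25.1% were called with DMF and 0% with MMF, and 23.9% rose and 24.8% fell with CBD.

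**Figure D5:**
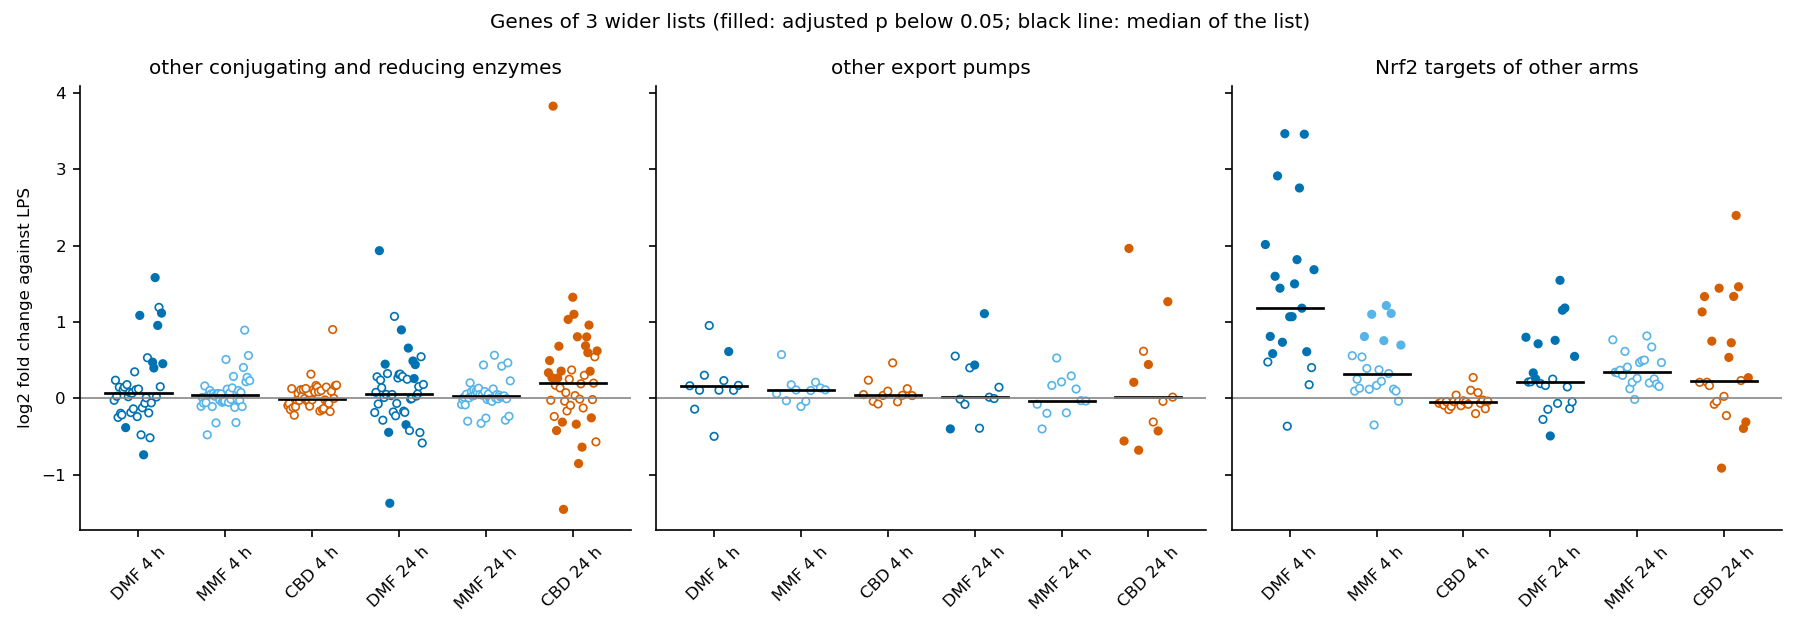
Log2 fold change against LPS alone of each tested gene of the 3 lists (vertical axes), for DMF, MMF and CBD at 4 h and then at 24 h, with 1 point per gene and a black line at the list's median. The Nrf2 targets of other arms have a median of 1.18 with DMF at 4 h, above the medians of 0.32 with MMF and -0.05 with CBD at that time.

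The genes whose group means followed each member most closely were found by Pearson's r of log2(group mean + 1) over the 12 groups, among 10090 genes with a mean of at least 50 normalized counts. These are descriptions over points that share LPS and time, with 12 points each. Gstm1 was most like Plxna1 (r = 0.97), Stx8 (0.96) and Gaa (0.95), and Esd like Procr (0.97), Ikbkg (0.95) and Zdhhc18 (0.94). Abcc1 was most like Galnt3 (0.96), Tubb2a (0.96) and Ikbkg (0.93), and Gstp1 like Aldh2 (0.96), Praf2 (0.90) and Mbtps2 (0.89). Osgin1 was most like Vps37b (0.92), Fip1l1 (0.90) and Zranb1 (0.90), and Ephx1 like Sord, Stt3b and Dcun1d4 (0.92 each). Of the low-count genes, Nqo1 was most like Ccm2 (0.92), Pced1b (0.89) and Rab10 (0.88), and Mgst1 like Ugt1a7c (0.89), Snx15 (0.88) and Ap3m1 (0.88). Cbr1 was most like Tcta (0.95), Ubxn6 (0.95) and Pard6a (0.92), and Gsta4, which rests on 43 reads in all, like Zzz3 (0.89), Mast2 (0.89) and Ube2l3 (0.88). Among the members themselves the highest r were 0.86 for Mgst1 and Gstm1, 0.83 for Gstp1 and Gstm1 and 0.82 for Esd and Abcc1, and the lowest was -0.31 for Ephx1 and Nqo1.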

How the data were processed

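The authors sequenced poly(A) RNA, trimmed reads with Cutadapt 4.4 and Trimmomatic 0.39, checked them with FastQC 0.12.1, aligned them to GRCm39 with HISAT2 2.2.1, counted them per gene with HTSeq 2.0.3 and compared groups pairwise with DESeq2 1.40.2 in R 4.3.1. The 30 deposited tables each give, per library, a signal that is the read count divided by that table's DESeq2 size factor. Their other columns, the authors' mean, log2 fold change, its error, test statistic, p-values and direction, were not used. Whole reads were recovered from the steps of the deposited signal (100% of 3127002 values within 0.01 read), and 34974 gene and library pairs listed in no table were set to 0.

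Groups came from the sample titles. The main test was limma 3.58.1 in R 4.3.3 (lmFit, eBayes with trend) on log2(authors' value + 1), over the 6 libraries of each comparison or 12 for the change of a drug effect with time, with genes of at least 10 in at least 3 libraries and Benjamini-Hochberg adjustment over all genes tested. Levels use size factors over all 36 libraries. Alternatives were a pseudocount of 5, no filter, edgeR 4.0.16 (quasi-likelihood) and DESeq2 1.42.0 on recovered reads, scaling to total reads, 1 fit of 36 libraries, the replicate number as a block, and leaving out each library. Scripts ran in Python 3.11.15, and transcripts were compared with blastn 2.17.0. Tests were checked on simulated counts. LPS groups are numbered 1 to 3 and vehicle groups 4 to 6, so LPS and vehicle could not be paired. Same-numbered libraries correlated over 0.1 in every pair in 14 of 20 comparisons that share numbers, and only there is a blocked call given beside a result, the others being among the limits. The 10 genes and the wider lists were chosen with earlier results of these data known, and Nqo1, Osgin1, Gstp1 and Gstm1 are genes the study itself named. The text gives every member, the genes nearest to it by r, and from each wider list the largest called changes, up to 3 a list and comparison. p-values measure the spread between 3 experiments on 1 line. Total reads per library and the 0 limit of 3 reads cover counting error only.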

Additional observations from a re-analysis of the deposited data

Results flagged for a closer look

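The response to a drug differed between 4 h and 24 h in 7 cases, by a limma test of that difference over 12 libraries. For DMF 3 of 9 genes were called, where 16.3% of all genes were. The DMF effect on Osgin1 was smaller at 24 h by -1.22 on the log2 scale (adjusted p = 0.0187), a call lost without DMF 4 h replicate 3 (0.0525) or LPS 24 h replicate 3 (0.053). That on Ephx1 changed by -0.96 (adjusted p = 0.00373) and turned from a log2 difference of 0.44 to -0.52. That on Abcc1 changed by -0.90 (adjusted p = 0.00669).

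For CBD 4 of 9 genes were called, where 32% of all genes were, all with a larger effect at 24 h. The change was 1.51 for Gstm1 (adjusted p = 0.000175), 1.10 for Esd (adjusted p = 0.000179), 0.64 for Gstp1 (adjusted p = 0.00656) and 0.52 for Ephx1 (adjusted p = 0.0231). The Ephx1 call was lost without LPS 4 h replicate 1, LPS 24 h replicate 1, CBD 24 h replicate 1 or CBD 4 h replicate 2 (0.0535 to 0.0587). For MMF 0 of 9 were called by limma, and 0 of all 11839 genes, with 2 of the 9 and 385 of all genes at an unadjusted p below 0.05.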

How the results depend on the processing

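With 33 counts of members called and 437 alternatives, 396 stayed within 1.5 times the main count and 41 did not. Of 94 called values 69 kept their call under every alternative in which the gene was tested. No direction turned, and 94 of 1231 alternative values lost the call. Alternatives in which a gene was not tested, as when it no longer passed the filter, are outside these counts. Nqo1 for DMF against DMSO at 4 h was tested in only 3 of the fits that left out a library. The counts that moved, with the cause not tested, were LPS against DMSO at 4 h, 1 with total-read scaling in place of 2, LPS against EtOH at 4 h, 2 with DESeq2, total-read scaling or 1 fit of 36 libraries in place of 1, MMF against LPS at 4 h, 1 with DESeq2, the replicate block or 1 fit of 36 libraries in place of 0, CBD against MMF at 4 h, 2 with DESeq2 and 4 with the block in place of 0, MMF against LPS at 24 h, 1 with DESeq2 and 6 with the block in place of 0, and LPS at 24 h against 4 h, 2 with edgeR, total-read scaling, the block or 1 fit of 36 libraries in place of 1. DESeq2 called 0.528% of all genes for MMF against LPS at 4 h and 0.141% at 24 h. The block called 7.78% for CBD against MMF at 4 h, 1.78% for MMF against LPS at 24 h and 52.2% for LPS over time. Shares under the other settings are not given, so those counts are not a result about these genes. At 4 h same-numbered MMF and LPS libraries did not all correlate (lowest r 0.0809), so that block compares samples that share only a number. Where the numbers pair, the block changed no call other than those given in the report. Where they do not, it added Abcc1 for MMF against LPS at 4 h, with 1.57% of all genes called. Over time it added Esd in DMSO (56.5% of all genes called) and EtOH cells (60.9%) and Abcc1 in DMF cells (60.8%). For the change of the CBD effect it added Abcc1 and Osgin1, with 39.8% of all genes called. Leaving out each library gave 0 to 1 for LPS against DMSO, 0 to 2 for LPS against EtOH, 0 to 1 for MMF against LPS, 2 to 3 for DMF against MMF and 0 to 3 for CBD against EtOH, all at 4 h, 4 to 7 for CBD against DMF at 24 h, and for 24 h against 4 h 2 to 5 in DMSO, 1 to 3 in EtOH, 1 to 3 in LPS and 2 to 4 in MMF cells. Without the low-count filter Nqo1 was lost for DMF against LPS at 4 h (adjusted p = 0.0653) and Abcc1 for DMF against MMF at 4 h (0.0527). For DMF against DMSO at 4 h, total-read scaling moved the median of all genes by -0.12 on the log2 scale and the share of calls that were higher from 48.7% to 24.6%, with 4 members called either way. Depth limits Nqo1, Cbr1, Mgst1 and Gsta4, at 0 to 69 reads per library.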

Other observations

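The wider lists were also read for LPS alone against the vehicles, where 14.1% of all genes were called against DMSO and 10.2% against EtOH at 4 h, and 22.7% and 20.5% at 24 h. Of the 21 Nrf2 targets of other arms, 5 rose and none fell against DMSO at 4 h, and 3 rose and none fell against EtOH. At 24 h 8 rose and 2 fell against DMSO, and 12 rose and 2 fell against EtOH. Of the other conjugating and reducing enzymes, 3 of 40 rose and none fell against DMSO at 4 h, 3 of 39 rose and 1 fell against EtOH, 9 of 42 rose and 3 fell against DMSO at 24 h, and 9 of 44 rose and 1 fell against EtOH. Of the other export pumps none of 11 was called against DMSO at 4 h and 1 fell against EtOH, while at 24 h 3 of 12 rose and 3 fell against DMSO and 4 of 11 rose and 2 fell against EtOH. The comparisons with the vehicles share the LPS libraries, and the limit of replicate numbers given for LPS against vehicle holds for them.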
